A study of Saccharomyces cerevisiae with 4 samples.

Results

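The cytoplasmic ribosome of *Saccharomyces cerevisiae* is built from a large and a small subunit. The small (40S) subunit binds the mRNA and reads its codons, and its proteins are encoded by the *RPS* genes. After a whole-genome duplication in an ancestor of this yeast, many *RPS* genes were kept as an A and a B paralog whose products are identical or nearly so. As a rule the *RPS* genes are transcribed together at a high rate, under Rap1p, Fhl1p, Ifh1p and Sfp1p, with signals from the TOR and protein kinase A pathways.

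The *RPS* genes were chosen by symbol (RPS, a number and an optional A or B) in the annotation of the Affymetrix Yeast Genome S98 array, and no measured value was used. The annotation names 55 such genes. Of these, 33 have at least 1 probe set that names them alone, and they are the genes described here, out of 5656 genes with a probe set of their own. The other 22 form 11 paralog pairs that are named only together, on shared probe sets. The 33 genes are both members of 13 paralog pairs (26 genes) and 7 genes with a single copy, *RPS2*, *RPS3*, *RPS12*, *RPS13*, *RPS15*, *RPS20* and *RPS31*. For a gene with several probe sets of its own the brightest was taken. Of the 33 probe sets 17 are of the plain kind, 7 are incomplete (fewer unique probes than usual) and 9 are family probe sets, whose probes can also match related sequences such as the other paralog.

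Total RNA came from the wild type SEY6210, a haploid *MAT*α laboratory strain, and from its derivative MEY12A, in which *CCW12*, the gene of an abundant cell wall mannoprotein, is disrupted with *URA3* (*ccw12*Δ). Both strains share the *ura3*, *leu2*, *his3*, *trp1*, *lys2* and *suc2* mutations of SEY6210, apart from the *URA3* gene in the disruption, and *ccw12*Δ is represented by this 1 strain. Cells were grown in YPD with added adenine to an OD600 of 1. The authors report that *ccw12*Δ grows more slowly than the wild type, and the part of this difference in the *RPS* values was not tested. Each strain has 2 arrays, each with cRNA from a separate pool of 3 RNA preparations, so that p-values rest on the spread between such pools, and the small number of arrays limits what can be told apart. The labels of wild type replicate 2 name SEY6210 in the title and SEY6211, a *MAT*a strain, in the description. It was taken as SEY6210, and the signals of the alpha-factor gene *MF(ALPHA)2* were 9247 and 8124 on the wild-type arrays. The labels of both *ccw12*Δ samples name the parent once as SEY6219.

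The values are linear signals, 1 per probe set and array, scaled for each array by the authors. The deleted gene had signals of 24314 and 24118 on the wild-type arrays and of 4260 and 3919 on the *ccw12*Δ arrays. The median signal over all 9335 probe sets was 122 and 118 in the wild type and 141 and 144 in *ccw12*Δ. Genes with a mean log2 signal under 6.46 were left out, and the other 4242 were tested with limma, all 33 *RPS* genes among them. At an adjusted p under 0.05 (Benjamini-Hochberg), 235 genes were higher in *ccw12*Δ (5.54% of those tested) and 25 were lower (0.589%). Genes of chromosomes II, IX and X were higher as a whole, with a median log2 ratio of *ccw12*Δ over the wild type of 0.97 (740 genes) beside 0.08 for the others (3502 genes). The array of wild type replicate 1 stood apart from the other 3. For the control gene *ACT1* its 3' probe set was brighter than the 5' one by a factor of 2.99, against 1.38 to 1.49 elsewhere. The control genes *SRB4* (9.82, against 2.20 to 3.52) and *SPT15* (7.12, against 2.87 to 3.69) showed still larger factors. The spread between the 2 wild-type arrays was larger (SD of the log2 difference 0.63) than between the 2 *ccw12*Δ arrays (0.38). Among the *RPS* genes these spreads were 0.35 and 0.18.

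Of the 33 *RPS* genes, *RPS22B* fell in *ccw12*Δ, *RPS14B* rose and 31 did not pass the limma test. This is 1 gene in each direction, 3.03% of the members, beside 0.589% lower and 5.54% higher among all genes tested. By a fold rule set for these signals, which uses no detection or change calls (a mean log2 ratio of at least 1, or of -1 or less, with one direction in the 4 ratios between arrays), the same 2 genes were called, where 10.4% of all genes were higher and 2.03% were lower. At an unadjusted p under 0.05 there were 4 *RPS* genes lower (*RPS22B*, *RPS9A*, *RPS26B* and *RPS7B*) and 1 higher, *RPS14B*. Over all genes tested 4.08% were lower and 18.2% were higher at this p. Most of the other members had a small negative log2 ratio: 30 of 33 were below 0, against 36.0% of all genes tested. The median was -0.27 (quartiles -0.38 and -0.18), and that of all genes tested was 0.18. In RNA from whole cultures, fewer cells that express a gene and less RNA per cell cannot be told apart.

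**Figure D1:**
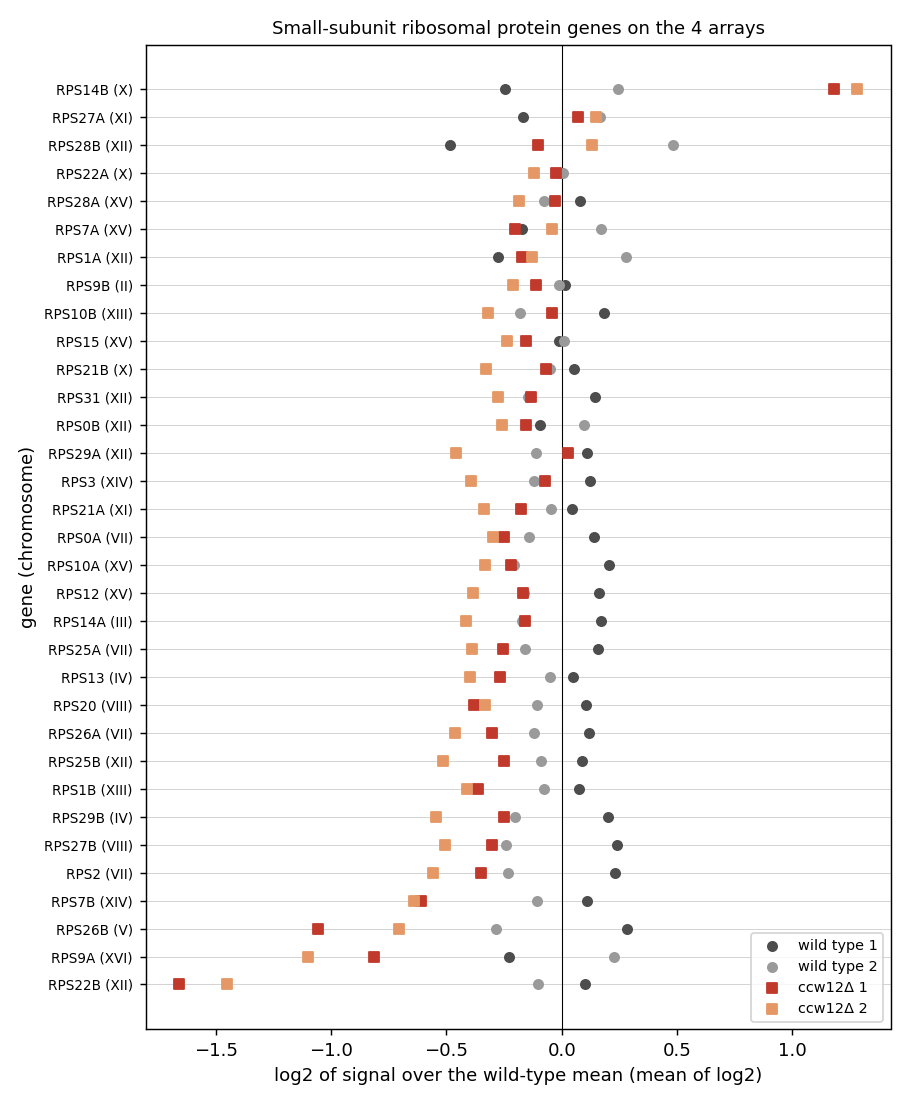
Signal of each of the 33 *RPS* genes on the 4 arrays, as log2 of the signal over the mean of the log2 wild-type signals (x axis), with the genes and their chromosomes ordered by the log2 ratio of *ccw12*Δ over the wild type (y axis). Circles are the 2 wild-type arrays and squares the 2 *ccw12*Δ arrays. *RPS22B* lies at the bottom with a log2 ratio of -1.56, *RPS14B* at the top with 1.23, and most other genes between -0.4 and 0 with squares to the left of both circles in 22 genes.

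In 22 of the 33 genes both *ccw12*Δ signals lay below both wild-type signals (66.7% of the members, beside 15.8% of all genes tested). In 1, *RPS14B*, both lay above (3.03%, beside 37.6% of all genes). With the mean over probe sets, 19 of 33 genes were lower without overlap (15.6% of all genes tested). With plain and incomplete probe sets only, 17 of 28 were (15.3% of all genes tested). The shift was of the size of the spread between arrays. Wild type replicate 2 was itself lower than replicate 1 by a median of 0.21 on the log2 scale over the *RPS* genes, whereas over all genes it was higher by 0.10. The median log2 ratio of the *RPS* genes was -0.32 and -0.49 for the 2 *ccw12*Δ arrays against wild type replicate 1, and -0.11 and -0.27 against wild type replicate 2. All 4 were below 0. The part of the 3' to 5' difference in this shift was not tested.

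The *RPS* genes are among the brightest on the array. The dimmest of them, *RPS9A*, lay at the 88.8th percentile of mean log2 signal over the 5656 genes, and their median lay at the 98.6th. Other very bright genes had negative log2 ratios as well, and less so at lower signals. Of the genes outside the ribosomal protein families that were at least as bright as the median *RPS* gene (a signal of 8876), 35 lie outside chromosomes II, IX and X, and 29 of these had a negative log2 ratio, with a median of -0.23. Of the 445 such genes at least as bright as *RPS9A*, 266 had a negative log2 ratio, with a median of -0.12. The *RPS* genes of the same chromosomes had a median of -0.28 (29 genes). How far brightness accounts for the *RPS* values was not tested. The scaling of the arrays also sets their level: after quantile normalization the median of the *RPS* genes was -0.08, with 10 of 33 genes lower without overlap (22.5% of all genes). With each array centred on its median it was -0.57, with 31 of 33 (34.1% of all genes).

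**Figure D2:**
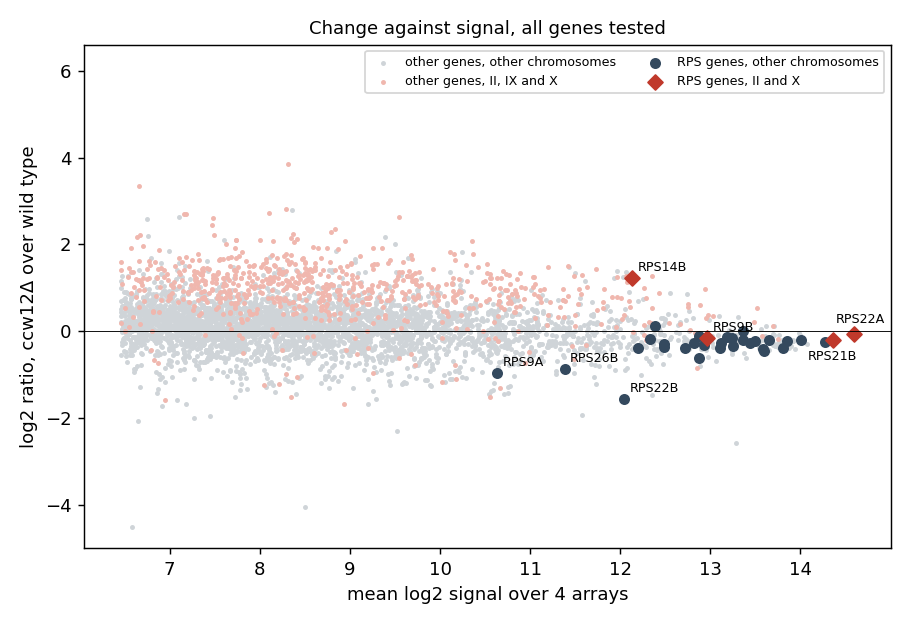
Log2 ratio of *ccw12*Δ over the wild type (y axis) against the mean log2 signal over the 4 arrays (x axis) for the 4242 genes tested, with the *RPS* genes drawn large and genes of chromosomes II, IX and X in red tones. The *RPS* genes lie at the right, and *RPS14B* alone of the 4 on chromosomes II and X lies well above 0, at 1.23.

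*RPS22B* and *RPS22A* encode Rps22p, a protein of the body of the small subunit that contacts the 18S rRNA. The signals of *RPS22B*, on chromosome XII, were 7782 and 6747 in the wild type and 2295 and 2645 in *ccw12*Δ. Both *ccw12*Δ signals were below both wild-type signals, and the groups were far apart. The mean was 7264 ± 732 (SD, n = 2 arrays) in the wild type and 2470 ± 247 (SD, n = 2) in *ccw12*Δ. The log2 ratio of -1.56 had a standard error of 0.23 and an adjusted p of 0.0146 from limma, and the level was 2.94-fold lower. In each of 17 alternative settings *RPS22B* was called, at log2 ratios from -1.86 to -1.43 and with adjusted p-values up to 0.0490 from limma.

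The 2 other probe sets of *RPS22B* were lower in *ccw12*Δ as well. The plain one had signals of 812 and 1386 in the wild type and 271 and 361 in *ccw12*Δ, a log2 ratio of -1.76. The family probe set had 5035 and 4764 in the wild type and 2249 and 2388 in *ccw12*Δ, a log2 ratio of -1.08. The probes of the family probe set may also match *RPS22A*, and the part of that match in its smaller change was not tested. The small nucleolar RNA gene *SNR44* lies within *RPS22B* in the RefSeq annotation, and the signals of its probe set were 1372 and 1870 in the wild type and 715 and 700 in *ccw12*Δ. Its groups did not overlap, but the adjusted p of its log2 ratio of -1.18 (standard error 0.29) was 0.0511 from limma, above the threshold.

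*RPS22A*, on chromosome X, was the brightest probe set on each of the 4 arrays. Its signals were 25267 and 25415 in the wild type and 24874 and 23339 in *ccw12*Δ, a log2 ratio of -0.07 (standard error 0.14, adjusted p = 0.792 from limma). The *ccw12*Δ signals were slightly below those of the wild type on both arrays. Whether this probe set was saturated was not tested, so that its ratio is no measure of a change above that signal.

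*RPS14A* and *RPS14B* encode Rps14p, a protein of the platform of the small subunit. Rps14p is known to repress the expression of *RPS14B* by binding its RNA. The signals of *RPS14B*, on chromosome X, were 2475 and 3481 in the wild type and 6659 and 7127 in *ccw12*Δ. Both *ccw12*Δ signals were above both of the wild type. The mean was 2978 ± 712 (SD, n = 2) and 6893 ± 331 (SD, n = 2), a 2.35-fold rise. The log2 ratio was 1.23 with a standard error of 0.25 and an adjusted p of 0.0321 from limma. *RPS14A*, on chromosome III, had signals of 7154 and 5646 in the wild type and 5694 and 4768 in *ccw12*Δ, so that the groups overlapped, and a log2 ratio of -0.29 (adjusted p = 0.509 from limma).

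The rise of *RPS14B* was close to that of its chromosome, whose 284 genes tested had a median log2 ratio of 1.06. When the median shift of each chromosome, relative to the wild type, was taken off every array (chromosome-centred), *RPS14B* was 0.16 higher on the log2 scale and was not called (adjusted p = 0.812 from limma). Its adjusted p lay between 1.9e-09 and 0.812 over 17 alternative settings, 11 of which called it. Without *ccw12*Δ replicate 1 it was 0.0988 and without *ccw12*Δ replicate 2 it was 0.189. *RPS14B* and *RPS22A* are neighbours on chromosome X. Of the 3 measured genes on either side of *RPS14B*, which were looked up after the values were seen, *YJL193W* had a log2 ratio of 0.53 and *RPL39*, coding for a protein of the large subunit, had 1.26. *SOP4* with 1.54, *CDC6*, coding for a factor that licenses replication origins, with 1.92 and *SWE1*, coding for a kinase of the morphogenesis checkpoint, with 2.44 were called higher. *RPS22A* was the only one of the 6 with a negative log2 ratio.

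*RPS9A* and *RPS9B* encode Rps9p, a protein of the body near the entry site of the mRNA. The signals of *RPS9A*, on chromosome XVI, were 1889 and 2592 in the wild type and 1257 and 1030 in *ccw12*Δ, without overlap. The log2 ratio was -0.96 with a standard error of 0.29, and its adjusted p of 0.0900 from limma missed the threshold. *RPS9B*, on chromosome II, had signals of 8536 and 8387 in the wild type and 7833 and 7315 in *ccw12*Δ, a log2 ratio of -0.16 (adjusted p = 0.665 from limma). Both values come from family probe sets, which may hold signal of the other paralog. The incomplete probe set of *RPS9B*, with signals of 4141 and 4925 in the wild type and 5024 and 4292 in *ccw12*Δ, had a log2 ratio of 0.04 with groups that overlapped. A further incomplete probe set that names both genes had 546 and 992 in the wild type and 157 and 148 in *ccw12*Δ. Its log2 ratio of -2.27 was the most negative among the 47 probe sets of single *RPS* genes and the 21 shared ones. It was not part of the test across genes.

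**Figure D3:**
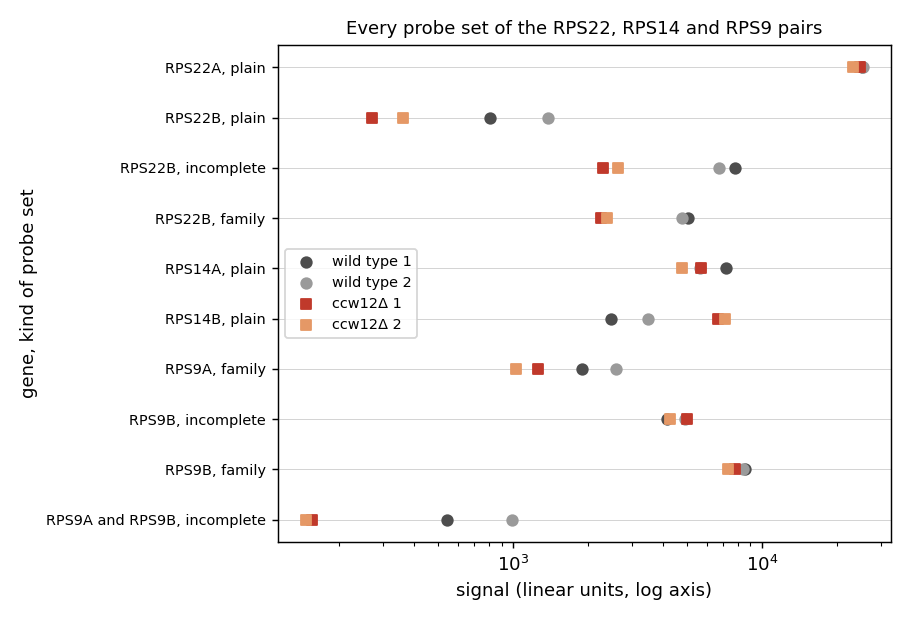
Signal (x axis, log scale) of each probe set of the *RPS22*, *RPS14* and *RPS9* pairs (y axis), with the kind of probe set. Circles are the 2 wild-type arrays and squares the 2 *ccw12*Δ arrays. All 3 probe sets of *RPS22B* are lower in *ccw12*Δ, *RPS14B* is higher, and the probe set shared by *RPS9A* and *RPS9B* falls from 546 and 992 to 157 and 148.

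*RPS21A* and *RPS21B* encode Rps21p, a small protein of the body. *RPS21B*, on chromosome X, had signals of 23316 and 21713 in the wild type and 21444 and 17940 in *ccw12*Δ, a log2 ratio of -0.20 (adjusted p = 0.505 from limma). *RPS21A*, on chromosome XI, had 22329 and 20948 in the wild type and 19161 and 17121 in *ccw12*Δ, a log2 ratio of -0.26 (adjusted p = 0.366 from limma). These are, beside *RPS22A*, the brightest members, and their saturation was not tested either. Their shared probe set was dimmer, with 9977 and 9104 in the wild type and 8203 and 8197 in *ccw12*Δ, and its log2 ratio was -0.22.

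The 4 *RPS* genes on chromosomes II and X (none of the members lies on chromosome IX) had a median log2 ratio of -0.12, and the 29 members on the other chromosomes had -0.28. The corresponding medians of all genes tested were 0.97 and 0.08. Of the 4, *RPS14B* is the dimmest and was the only one to rise, whereas *RPS9B*, *RPS21B* and *RPS22A* had log2 ratios between -0.20 and -0.07. The genes outside the ribosomal protein families on chromosomes II, IX and X that were at least as bright as the median *RPS* gene number 4, and their median was 0.14. Those at least as bright as *RPS9A* number 115, with a median of 0.68. With chromosome-centred arrays *RPS21B* and *RPS22A* were called lower, with log2 ratios of -1.27 and -1.14 (adjusted p = 0.0357 from limma for both), and *RPS9B* was not called at -1.08 (adjusted p = 0.0986). These values are what remains after the shift of the chromosome, a median of 1.06 on chromosome X, was taken off. The saturation of *RPS21B* and *RPS22A* was not tested, so that their calls in this setting are no measure of a fall. *RPS14B*, with 0.16, was the only one of the 4 above 0 in that setting.

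Between paralogs, levels of different probe sets cannot be compared, so that only the change of the A to B ratio between strains is given. This change has limits too. *RPS9*, *RPS10*, *RPS25* and *RPS29* rest on family probe sets for both paralogs and *RPS28* for A, and these may hold signal of the other paralog. The part of such matches, and of saturation, was not tested. In each of the 4 pairs with a paralog on chromosome II or X, that paralog was higher relative to the other in *ccw12*Δ, on both arrays beyond both wild-type arrays. The log2 ratio of A to B changed by -1.52 for *RPS14* (from 1.53 and 0.70 in the wild type to -0.23 and -0.58 in *ccw12*Δ). It changed by 1.48 for *RPS22* (from 1.70 and 1.91 to 3.44 and 3.14) and by -0.80 for *RPS9* (from -2.18 and -1.69 to -2.64 and -2.83). For *RPS21* it changed by only -0.06 (from -0.06 and -0.05 to -0.16 and -0.07).

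The size of this change had a median of 1.14 over these 4 pairs and of 0.18 over the 9 pairs with both paralogs on other chromosomes, of which 2 did not overlap between strains. Among the 9, the pairs with plain probe sets for both paralogs changed by -0.07 (*RPS0*), 0.50 (*RPS7*) and 0.51 (*RPS27*). Those with family probe sets for both changed by -0.10 (*RPS10*), 0.06 (*RPS25*) and 0.18 (*RPS29*). The part of the kind of probe set in these medians was not tested. The exact permutation test over the 4 arrays (two-sided, 13 pairs) gave p = 0.333 for each of the 6 pairs without overlap. This is the smallest p that 2 arrays against 2 allow, before any adjustment over the pairs, so that no pair can pass. For *RPS22* the size of the change rests on the ratio of *RPS22A*, whose saturation was not tested, and on the fall of *RPS22B*. For *RPS9* the change lay mostly in the lower signal of *RPS9A* on chromosome XVI, and for *RPS14* mostly in the rise of *RPS14B* on chromosome X. With chromosome-centred arrays the changes were -0.49 for *RPS14*, 0.54 for *RPS22*, -0.03 for *RPS9* and 0.81 for *RPS21*, the last in the opposite direction. For *RPS21* this change follows from the chromosome shift taken off *RPS21B*, whose saturation was not tested. Of the 16 *RPL* pairs of the large subunit with both paralogs measured, 6 did not overlap, and the median size was 0.25 beside 0.24 over all 13 *RPS* pairs.

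**Figure D4:**
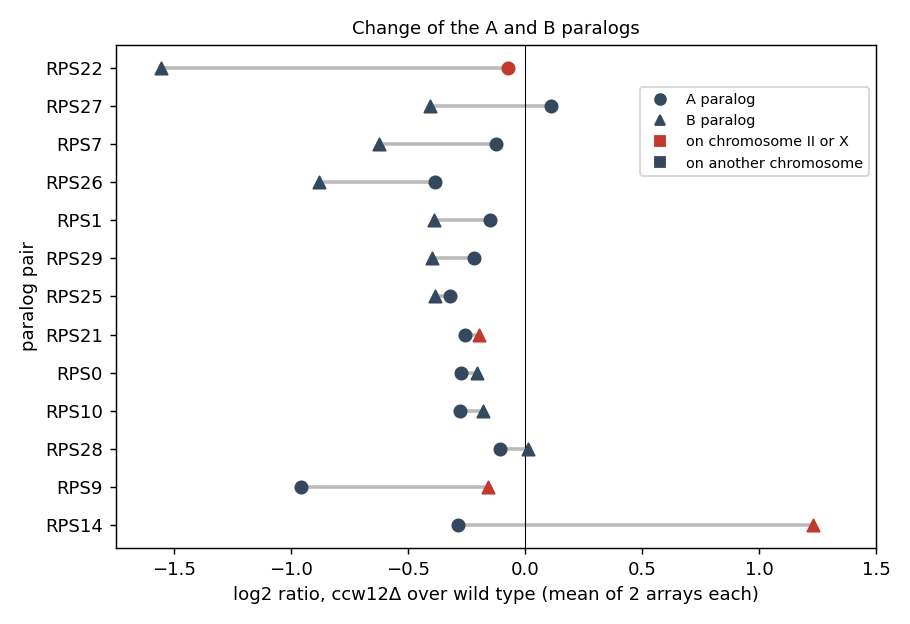
Log2 ratio of *ccw12*Δ over the wild type (x axis, means of 2 arrays per strain) of the A (circles) and B (triangles) paralog of the 13 pairs (y axis), ordered by the difference of the 2. Red marks the paralogs on chromosomes II and X, each of which lies to the right of its partner, by 1.52 in *RPS14*, 1.48 in *RPS22*, 0.80 in *RPS9* and 0.06 in *RPS21*.

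Of the 9 remaining pairs, *RPS26* and *RPS7* did not overlap between strains, and in both the B paralog was lower relative to A. *RPS26A* and *RPS26B* encode Rps26p, which lies at the exit site of the mRNA. The signals of *RPS26B* were 4414 and 2972 in the wild type and 1739 and 2222 in *ccw12*Δ, without overlap, and its log2 ratio was -0.88 (standard error 0.29, adjusted p = 0.114 from limma). *RPS26A* had 17718 and 15041 in the wild type and 13234 and 11837 in *ccw12*Δ, a log2 ratio of -0.38 (adjusted p = 0.236). The log2 ratio of A to B changed by 0.50, less than the difference between the *ccw12*Δ arrays, 2.93 and 2.41.

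*RPS7A* and *RPS7B* encode Rps7p, a protein of the body that also acts in the maturation of the subunit. *RPS7B* had signals of 10035 and 8634 in the wild type and 6104 and 5968 in *ccw12*Δ, without overlap, and a log2 ratio of -0.62 (adjusted p = 0.0999 from limma). Its other probe set had 3981 and 7560 in the wild type and 5209 and 4711 in *ccw12*Δ, with groups that overlapped, and a log2 ratio of -0.15. *RPS7A* had 8622 and 10950 in the wild type and 8441 and 9427 in *ccw12*Δ, a log2 ratio of -0.12 (adjusted p = 0.762). Its other plain probe set had 6272 and 8393 and then 7820 and 7273, with groups that overlapped, and a log2 ratio of 0.06. The log2 ratio of A to B changed by 0.50, less than the difference between the wild-type arrays, -0.22 and 0.34. With the mean over probe sets the change was 0.35.

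*RPS27A* and *RPS27B* encode Rps27p, a protein with a zinc finger. *RPS27B* had signals of 16652 and 11923 in the wild type and 11414 and 9913 in *ccw12*Δ, a log2 ratio of -0.41 (adjusted p = 0.298 from limma). *RPS27A*, with 4591 and 5784 in the wild type and 5407 and 5711 in *ccw12*Δ, was 1 of the 3 members with a log2 ratio above 0 (0.11, adjusted p = 0.814), and its groups overlapped. *RPS1A* and *RPS1B* encode Rps1p, of the platform. *RPS1B* had 5667 and 5094 in the wild type and 4173 and 4036 in *ccw12*Δ, a log2 ratio of -0.39 (adjusted p = 0.343 from limma), while *RPS1A* had 8382 and 12329 in the wild type and 9022 and 9297 in *ccw12*Δ, both within the range of the wild type, and -0.15 (adjusted p = 0.735).

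In the *RPS28* pair, whose product lies near the exit of the mRNA, the wild-type arrays disagreed. *RPS28B*, whose mRNA is known to be destabilized through its own protein, had signals of 7471 and 14612 in the wild type and 9733 and 11437 in *ccw12*Δ, a log2 ratio of 0.01. Both *ccw12*Δ signals lay between those of the wild type. Without wild type replicate 1 its log2 ratio was -0.47 and without wild type replicate 2 it was 0.50. *RPS28A* had 8207 and 7367 in the wild type and 7609 and 6844 in *ccw12*Δ, a log2 ratio of -0.11 (adjusted p = 0.788) with groups that overlapped. Its dimmer, incomplete probe set had 3313 and 1364 and then 1568 and 1259, also with overlap, and a log2 ratio of -0.60.

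In the 4 other pairs both paralogs had small negative log2 ratios, with adjusted p-values between 0.299 and 0.696 from limma. *RPS0A* and *RPS0B* encode a protein of the body needed for 18S rRNA maturation. *RPS0A*, with signals of 8784 and 7225 in the wild type and 6698 and 6482 in *ccw12*Δ, had a log2 ratio of -0.27, and *RPS0B*, with 16599 and 18957 and then 15947 and 14828, had -0.21, both without overlap. The dimmer family probe sets of *RPS0A* and *RPS0B* had log2 ratios of -0.01 and -0.07, with groups that overlapped. *RPS10A* and *RPS10B* encode a protein of the beak. *RPS10A*, with 11262 and 8475 in the wild type and 8387 and 7755 in *ccw12*Δ, had -0.28, and the groups of *RPS10B*, which had -0.18, overlapped. The dimmer probe sets of *RPS10A* and *RPS10B* had -0.09 and -0.54, with groups that overlapped. The paralogs for Rps25p, a protein of the head needed for initiation at some internal ribosome entry sites, were both lower without overlap. *RPS25A* had 9702 and 7791 in the wild type and 7292 and 6633 in *ccw12*Δ, a log2 ratio of -0.32, and *RPS25B* had 10737 and 9508 and then 8494 and 7063, a log2 ratio of -0.38. The dimmer, incomplete probe sets had -0.26 without overlap for *RPS25A* and -0.27 with overlap for *RPS25B*. *RPS29A* and *RPS29B* encode a zinc-binding protein of the head. *RPS29A*, with 13421 and 11505 in the wild type and 12656 and 9036 in *ccw12*Δ, overlapped with a log2 ratio of -0.22, and *RPS29B*, with 8923 and 6737 and then 6512 and 5307, did not, with -0.40. In these 4 pairs the A to B ratio overlapped between strains and changed by -0.10 to 0.18. The 10 B paralogs outside chromosomes II, IX and X had a median log2 ratio of -0.39 and the 12 A paralogs there had -0.26, a difference that was not tested.

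The 7 genes with a single copy all had negative log2 ratios, between -0.45 and -0.20, where 36.0% of all genes tested were below 0. None passed the limma test. In 5 of the 7 both *ccw12*Δ signals lay below both wild-type signals, as in 15.8% of all genes tested. The signals of *RPS2*, coding for a protein that affects the accuracy of decoding, were 16971 and 12286 in the wild type and 11314 and 9812 in *ccw12*Δ. Its log2 ratio of -0.45 (adjusted p = 0.238 from limma) was the most negative of the 7, and the *ccw12*Δ arrays differed less from wild type replicate 2 than the wild-type arrays did from each other. *RPS20*, of the head, had 7019 and 6048 in the wild type and 4999 and 5173 in *ccw12*Δ, a log2 ratio of -0.36 (adjusted p = 0.366). *RPS13*, which contacts the large subunit, had 11314 and 10549 in the wild type and 9069 and 8279 in *ccw12*Δ, and *RPS15*, of the head near the decoding site, had 11224 and 11403 and then 10162 and 9602. These 2 genes had log2 ratios of -0.33 and -0.20. *RPS12*, of the beak, had 13722 and 10960 in the wild type and 10902 and 9399 in *ccw12*Δ, a log2 ratio of -0.28, with 1 *ccw12*Δ signal just below the lower wild-type one. The groups of *RPS3*, at the mRNA entry site, and of *RPS31*, made as a fusion with ubiquitin, overlapped, with log2 ratios of -0.23 and -0.20.

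By position in the subunit, the 13 genes for proteins of the head had log2 ratios between -0.40 and 0.01 with a median of -0.23, and none was called. The 20 for proteins of the body and platform ranged from -1.56 to 1.23 with a median of -0.28, and they include both genes that were called. *ASC1*, coding for a protein of the head of the small subunit that has no *RPS* name, had signals of 17239 and 15925 in the wild type and 15630 and 12809 in *ccw12*Δ, a log2 ratio of -0.23 (adjusted p = 0.484 from limma).

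The 11 pairs that are named only on shared probe sets gave a signal for both paralogs at once. The brightest shared probe sets of these pairs had log2 ratios between -0.29 and 0.09. The 5 pairs with a paralog on chromosome II, IX or X had a median of -0.06, and the 6 with both paralogs elsewhere had -0.20. *RPS4*, which has a paralog on chromosome X, had signals of 10664 and 8443 in the wild type and 10871 and 9427 in *ccw12*Δ. Its log2 ratio was the highest of the 11 pairs, 0.09, and its groups overlapped. *RPS18*, with 14963 and 13390 in the wild type and 12356 and 10776 in *ccw12*Δ, had the lowest of these, -0.29. Dimmer shared probe sets could differ from the brightest. For *RPS16*, coding for a protein of the head, the brightest had a log2 ratio of -0.13 and another family probe set had -0.21, while both incomplete ones were lower without overlap. One of these had 6676 and 5057 in the wild type and 3174 and 4493 in *ccw12*Δ, a log2 ratio of -0.62, and the other had 783 and 928 and then 590 and 618, a log2 ratio of -0.50. These were not part of the test across genes.

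The large-subunit genes were shifted in the same direction. The 42 *RPL* genes tested had a median log2 ratio of -0.22, 38 of them were below 0 and none was called, while 1 was higher and 4 were lower at an unadjusted p under 0.05 from limma (18.2% and 4.08% of all genes tested). Of the 42 *RPL* genes 20 were lower without overlap, beside 22 of the 33 *RPS* genes (66.7%) and 15.8% of all genes tested. The 9 *MRPS* genes, for small-subunit proteins of the mitochondrial ribosome, had a median of 0.03, with none called and none at an unadjusted p under 0.05 from limma. The 7 of them outside chromosomes II, IX and X had a median of -0.38, and the 2 on those chromosomes had 0.41. Differences between these families were not tested.

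**Figure D5:**
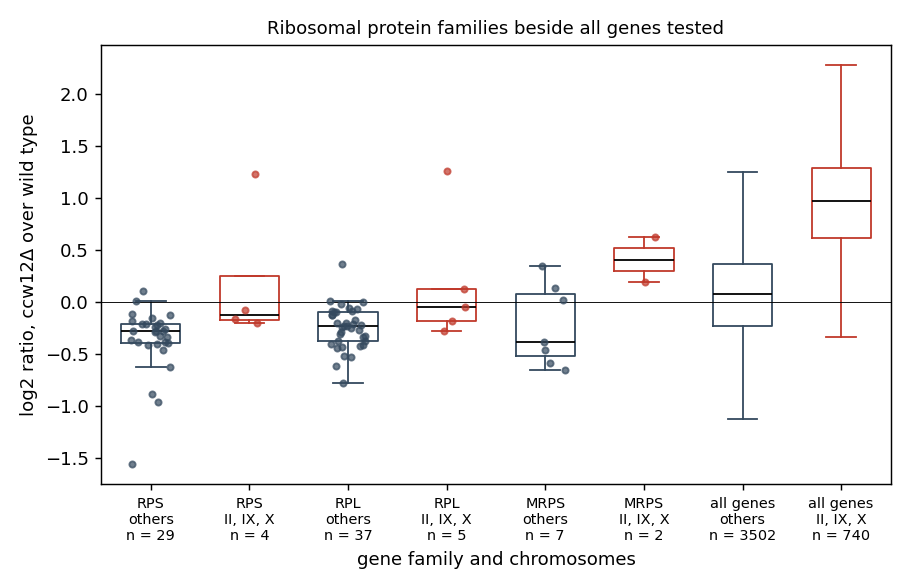
Log2 ratio of *ccw12*Δ over the wild type (y axis) of the genes tested in each family (x axis), split by chromosomes II, IX and X (red) and the others (blue). Boxes give the quartiles and the median, whiskers reach to the farthest gene within 1.5 box lengths, points are genes, and points are left out for all genes. On the other chromosomes the medians are -0.28 (*RPS*), -0.23 (*RPL*), -0.38 (*MRPS*) and 0.08 (all genes). On chromosomes II, IX and X they are -0.12 (*RPS*), -0.04 (*RPL*), 0.41 (*MRPS*) and 0.97 (all genes).

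Of 18 regulators of ribosomal protein genes that were tested, none passed, and 2 were higher at an unadjusted p under 0.05 from limma, where 18.2% of all genes tested were higher. Their median log2 ratio was 0.14. *TOR1*, coding for a kinase that promotes ribosomal protein gene transcription, had signals of 273 and 186 in the wild type and 534 and 465 in *ccw12*Δ, a log2 ratio of 1.14 (adjusted p = 0.0620). *BCY1*, the regulatory subunit of protein kinase A, had 836 and 1441 in the wild type and 2107 and 2258 in *ccw12*Δ, a log2 ratio of 0.99 (adjusted p = 0.112). *TOR1* lies on chromosome X and *BCY1* on chromosome IX. *IFH1*, *RAP1* and *SFP1* had log2 ratios of -0.02, -0.09 and 0.36, and *FHL1* was too dim to be tested.

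Of 21 assembly factors, chaperones and partners of the small subunit that were tested, *ASC1* among them, none passed, and 1 was lower at an unadjusted p under 0.05 from limma, where 4.08% of all genes tested were lower. Their median log2 ratio was -0.17. *RIO1*, coding for a kinase of the last steps of 40S maturation, had signals of 431 and 155 in the wild type and 98.5 and 67 in *ccw12*Δ, a log2 ratio of -1.67 (adjusted p = 0.0734). Its wild-type arrays differed by 1.48 on the log2 scale. *DIM1*, coding for the 18S rRNA dimethylase, had a log2 ratio of -0.63 (adjusted p = 0.366) with groups that overlapped.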

How the data were processed

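Total RNA of SEY6210 and MEY12A (*ccw12*Δ) was measured on 4 single-colour arrays, 2 per strain. The authors converted the scans with GCOS, and the submitters' processing notes name MAS5, without a version. The deposited intensity values are linear signals that the authors scaled per array, to a target not given in the sources used here, and no further scaling was applied. Of 9335 probe sets, 60 are controls, 6504 name 1 gene, 328 name several and 2443 none. Chromosomes came from the RefSeq table (R64) by gene ID, and all 33 *RPS* genes matched. Before log2, 19 signals of zero were raised to 0.1. Genes under the 25th percentile of mean log2 signal (6.46, a signal of 87.9) were left out, and the remaining 4242 went into limma 3.58.1 (lmFit and a trended eBayes, under R 4.3.3), with Benjamini-Hochberg adjustment over all of them. A ratio is the mean log2 signal of *ccw12*Δ minus that of the wild type.

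Every *RPS* gene with a probe set of its own could be named, with full statistics for called genes, paralog pairs and genes of chromosomes II, IX and X. The members, lists and alternatives were chosen with earlier results of these data known. The alternatives were quantile normalization, centring of arrays by the median of all genes, of those not on chromosomes II, IX and X, or of each chromosome, no filter or the 50th percentile, an offset of 7.2, the mean over probe sets, plain probe sets only, no trend, the replicate number as a block and each array left out. The settings with plain and incomplete probe sets only, and with crossed replicate numbers, were chosen after seeing the data. The limma fit was tested on simulated data. Plots used matplotlib 3.10.9 under Python 3.11.15.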

Additional observations from a re-analysis of the deposited data

How the results depend on the processing

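Of the single-gene results of the 33 *RPS* genes under the settings that keep all 4 arrays, 382 kept direction and side of the threshold. These include *RPS21A* and *RPS22A* after quantile normalization, whose log2 ratios of 0 had no direction. Another 17 changed direction, 6 gained a call and 4 lost it. The lost calls were those of *RPS14B*, which had log2 ratios of 0.93 and 1.10 with arrays centred on their medians or on genes outside chromosomes II, IX and X, 0.16 with chromosome-centred arrays and 1.23 without the filter (adjusted p = 0.121, 0.0725, 0.812 and 0.0726 from limma). The number of genes called over the array (235 higher and 25 lower) went to 118 with quantile normalization, to 38 with median-centred arrays, 66 with centring on genes outside chromosomes II, IX and X, 25 with chromosome-centred arrays and 37 without the filter. The number of *RPS* genes called, 2, was 1 with median-centred arrays, with centring outside those chromosomes and without the filter. The median of the *RPS* genes was -0.077 after quantile normalization and -0.57 with median-centred arrays, and that of the members on the other chromosomes was -0.11 and -0.58. The median of the 4 members on chromosomes II and X was 0.035 after quantile normalization, -0.42 with median-centred arrays, -0.25 with centring outside those chromosomes, -1.11 with chromosome-centred arrays, 0.58 over the 2 with plain probe sets and -0.016 over plain and incomplete probe sets. The median size of the A to B change was 0.51 over 5 pairs with plain probe sets and 0.50 over 10 with plain or incomplete ones. The cause was not tested, apart from the lower level that centring sets.

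After quantile normalization, members that did not pass had small log2 ratios of the opposite sign: 0.012 for *RPS3*, 0.0094 for *RPS29A*, 0.060 for *RPS0B*, 0.0052 for *RPS31*, 0.042 for *RPS21B*, 0.039 for *RPS15*, 0.029 for *RPS9B*, 0.036 for *RPS1A*, 0.095 for *RPS7A* and 0.082 for *RPS28A*. *RPS28B* and *RPS27A* had -0.29 and -0.19 with median-centred arrays, -0.12 and -0.024 with centring outside chromosomes II, IX and X and -0.11 and -0.096 with chromosome-centred arrays. *RPS9B* had 0.040 with its incomplete probe set.

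With 1 array left out, the lone array of a strain is assumed to vary like those of the other strain. The genes called then numbered 53 to 1387, and the *RPS* genes called 1 to 11. The 11 came without wild type replicate 2, where 961 genes were called higher and 426 lower over the array, with *RPS28B* higher and *RPS2*, *RPS7B*, *RPS9A*, *RPS10A*, *RPS26A*, *RPS26B*, *RPS27B* and *RPS29B* lower beside the 2 genes of the full set. *RPS9A* was also called without wild type replicate 1, and *RPS14B* was not called without mutant replicate 1 or mutant replicate 2 (adjusted p = 0.0988 and 0.189 from limma). The median of the *RPS* genes lay between -0.38 and -0.17, that of the members on chromosomes II and X between -0.16 and -0.05, that of the others between -0.44 and -0.21, and the median size of the A to B change between 0.17 and 0.59. Signs changed for *RPS29A* (-0.46 to 0.026), *RPS10B* (-0.36 to 0.0020), *RPS1A* (-0.43 to 0.13), *RPS7A* (-0.30 to 0.049), *RPS28B* (-0.47 to 0.50) and *RPS27A* (-0.058 to 0.28).

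With the replicate number as a block 593 of the 4242 genes tested were called, 477 higher and 116 lower. Of the 33 *RPS* genes 1 was called higher and 4 lower, the added ones being *RPS26B*, *RPS7B* and *RPS9A*, all lower. The labels give no shared culture or day for the numbers. The deviations of replicate 2 from the strain means correlated at -0.15 between strains over 4242 genes. With the numbers crossed 521 genes (437 higher and 84 lower) and 3 *RPS* genes (1 higher and 2 lower) were called in that pairing.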
